A study of Mus musculus with 24 samples.

Results

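The cyclin-dependent kinase (CDK) inhibitors other than p21 were followed in the blood of irradiated young and old mice. They are the genes *Cdkn1b*, *Cdkn1c*, *Cdkn2a*, *Cdkn2b*, *Cdkn2c* and *Cdkn2d*, and they were taken by gene name from the array: 9 of its 39429 probes carry one of these 6 names. *Cdkn1a*, which encodes p21, was kept as a comparator. Blood RNA of 24 male C57BL/6J mice was measured on Agilent whole mouse genome arrays with the dye Cy3, with 1 mouse per array and 6 mice per group. Mice were aged 2 months (young) or 21 months (old), and within each age a group was left unirradiated (sham) or received 4 Gy of x-rays to the whole body. Blood was drawn by cardiac puncture 24 h after exposure, into tubes that stabilize RNA, and globin RNA was reduced before labeling. No group carries a transgene or a deleted gene. The whole blood of 1 mouse is a mixture of cell types, so fewer cells of a type and less RNA per cell cannot be told apart.

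CDK inhibitors are small proteins that hold back the kinases driving a cell from G1 into S phase. The Cip/Kip family, to which p21 (*Cdkn1a*), p27 (*Cdkn1b*) and p57 (*Cdkn1c*) belong, binds complexes of cyclins with CDK2, CDK4 or CDK6. The INK4 family, p16 (*Cdkn2a*), p15 (*Cdkn2b*), p18 (*Cdkn2c*) and p19 (*Cdkn2d*), binds CDK4 and CDK6 alone and keeps D-type cyclins from them. *Cdkn2a* also encodes Arf, which is read in another frame from a first exon of its own and which restrains Mdm2, the ligase that removes p53. Transcripts of *Cdkn2a* and *Cdkn2b* are widely used as marks of aged and senescent tissue, whereas *Cdkn2c* and *Cdkn2d* are known for roles in blood cell differentiation.

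By the RefSeq annotation of GRCm38.p6, *Cdkn2a* (chr4:89274473-89294619) and *Cdkn2b* (chr4:89306289-89311032) are neighbors on chromosome 4, with 11670 bases between them. *Cdkn2c* lies on the same chromosome at chr4:109660876-109666756. *Cdkn1b* is at chr6:134920401-134925525, *Cdkn1c* at chr7:143458339-143461059 and *Cdkn2d* at chr9:21288459-21291421. All 6 symbols matched this annotation, and *Cdkn1a* is at chr17:29090979-29100722.

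The results turn on *Cdkn2a* and *Cdkn2b*, and each was read by a pair of probes of 60 bases. The first 30 bases of each probe are shown to make clear which piece of the transcript was measured. They are printed 5′ to 3′ in lower case with no part marked, and the coordinates are those of the whole probe in build mm9, minus strand. Both *Cdkn2a* probes are listed by the array for the p16 transcript and for the Arf transcript, so neither probe separates p16 from Arf. Their starts lie 138 bases apart, and those of the *Cdkn2b* probes 444 bases apart. Whether a probe lies in an exon or a UTR was not determined, because an mm9 annotation was not used here.
Cdkn2a A_55_P2008437, chr4:88920405-88920464: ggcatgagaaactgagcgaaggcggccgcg
Cdkn2a A_55_P2008438, chr4:88920543-88920602: cttctagcgatgctagcgtgtctagcatgt
Cdkn2b A_55_P1988183, chr4:88952276-88952335: ccagtgatgaattgtagtggtagcaggtta
Cdkn2b A_55_P1979526, chr4:88952720-88952779: ttgagcctcaccttgaagccaaggggatca

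The 250 bases before the 3 start sites of this locus are shown because its transcripts differed between groups. They are RefSeq sequences of GRCm38.p6, minus strand, and capitals mark the GC box GGGCGG on either strand. The Arf start has 2 GC boxes in this window and a GC content of 78.4%, against 60.0% before the p16 start and 53.6% before the *Cdkn2b* start, which have no GC box. A GC box is held by 32.7% of the 32851 mouse promoter windows of the same length, whose median GC content is 52.4%. None of the 3 windows holds TATAAA (12.4% of all windows), the E2F words TTTCGCGC or TTTGGCGC (0.654%), the FOXO word GTAAACA (3.17%), the SMAD word GTCTAGAC (0.167%), CACGTG (6.02%) or a p53 half-site (7.13%). Both strands were searched, and since only the GC box matched, no match overlapped that of another word.
Cdkn2a, Arf start, chr4:89294620-89294869: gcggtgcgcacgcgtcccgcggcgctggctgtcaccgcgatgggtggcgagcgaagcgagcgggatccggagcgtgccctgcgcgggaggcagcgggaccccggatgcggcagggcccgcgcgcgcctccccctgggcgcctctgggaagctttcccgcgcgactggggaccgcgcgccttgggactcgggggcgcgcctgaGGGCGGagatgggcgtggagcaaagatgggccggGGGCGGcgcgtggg
Cdkn2a, p16 start, chr4:89282193-89282442: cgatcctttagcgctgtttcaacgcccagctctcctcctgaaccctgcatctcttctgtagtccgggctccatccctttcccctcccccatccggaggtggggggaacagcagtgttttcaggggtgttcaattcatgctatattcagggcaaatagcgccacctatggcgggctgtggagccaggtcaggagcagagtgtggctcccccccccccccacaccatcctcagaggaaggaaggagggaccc
Cdkn2b, chr4:89311033-89311282: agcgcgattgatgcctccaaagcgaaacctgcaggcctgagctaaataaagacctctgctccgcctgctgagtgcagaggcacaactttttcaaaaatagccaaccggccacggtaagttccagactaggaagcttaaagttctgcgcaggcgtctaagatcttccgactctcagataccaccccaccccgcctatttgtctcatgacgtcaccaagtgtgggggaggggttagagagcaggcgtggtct

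Levels are given as log2 of the background-subtracted signal minus the median of the array, so 0 is the median spot of an array and 1 unit is a doubling. They compare 1 probe between mice and not 1 gene with another. A spot is called well above background by the flag that the scanner software wrote. All 6 members passed the filters on dim and unvarying probes, each by its brightest probe, and were tested among 17802 genes. A differentially expressed gene (DEG) had p below 0.005 and an adjusted p below 0.05 in limma's moderated test, with Benjamini-Hochberg adjustment over all genes tested. Spots well above background made up 43.9% to 64.4% of an array, and median signals ran from 8.66 to 44.8. With 6 mice a group, precision is set by the number of mice. Markers of B cells, T cells, NK cells, neutrophils, monocytes, red cells and platelets were well above background in every group. Irradiated young replicates 2, 4 and 5, irradiated old replicates 2, 3 and 5 and unirradiated young replicate 5 also had strong hepatocyte markers, such as *Alb*, and irradiated old replicates 4 and 6 stood apart from the others of their group. Young and old mice were scanned on different days, so scan day and age cannot be told apart. Irradiated young replicates 1 and 6 and replicates 2 and 5, unirradiated old replicates 1 and 6, and irradiated old replicates 4 and 6 were closer than other pairs of their groups, with an SD of their log2 differences over 13722 probes of 0.315, 0.266, 0.178 and 0.311 against at least 0.402. In unirradiated young mice, where no pair was set apart, the lowest such SD was 0.319, so that 0.315 and 0.311 lie just below it. For repeated spots of a probe on the same array, the SD of their log2 difference, from their variance, was 0.121 and 0.143 on the closest pair of arrays. Whether a pair shares a source is not given; with each pair averaged as 1 sample, as many members were DEGs in every comparison. As the comparator, *Cdkn1a* (A_51_P363947) rose by 5.06 (SE 0.33, limma adjusted p = 5.56e-07) in young mice and by 3.96 (SE 0.29, limma adjusted p = 1.52e-05) in old mice on the log2 scale after irradiation. Probe A_55_P1986282 of this gene, fitted with all 39429 probes without filters, differed by 3.39 (young) and 4.36 (old), both DEGs. In that fit A_55_P1976204 differed by 0.93 (young, not a DEG) and 1.51 (old, a DEG). Neither of these was well above background in any unirradiated mouse. The *Cdkn1a* probes thus disagreed on which age had the larger rise, and for none was the age difference in the rise a DEG.

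**Figure D1:**
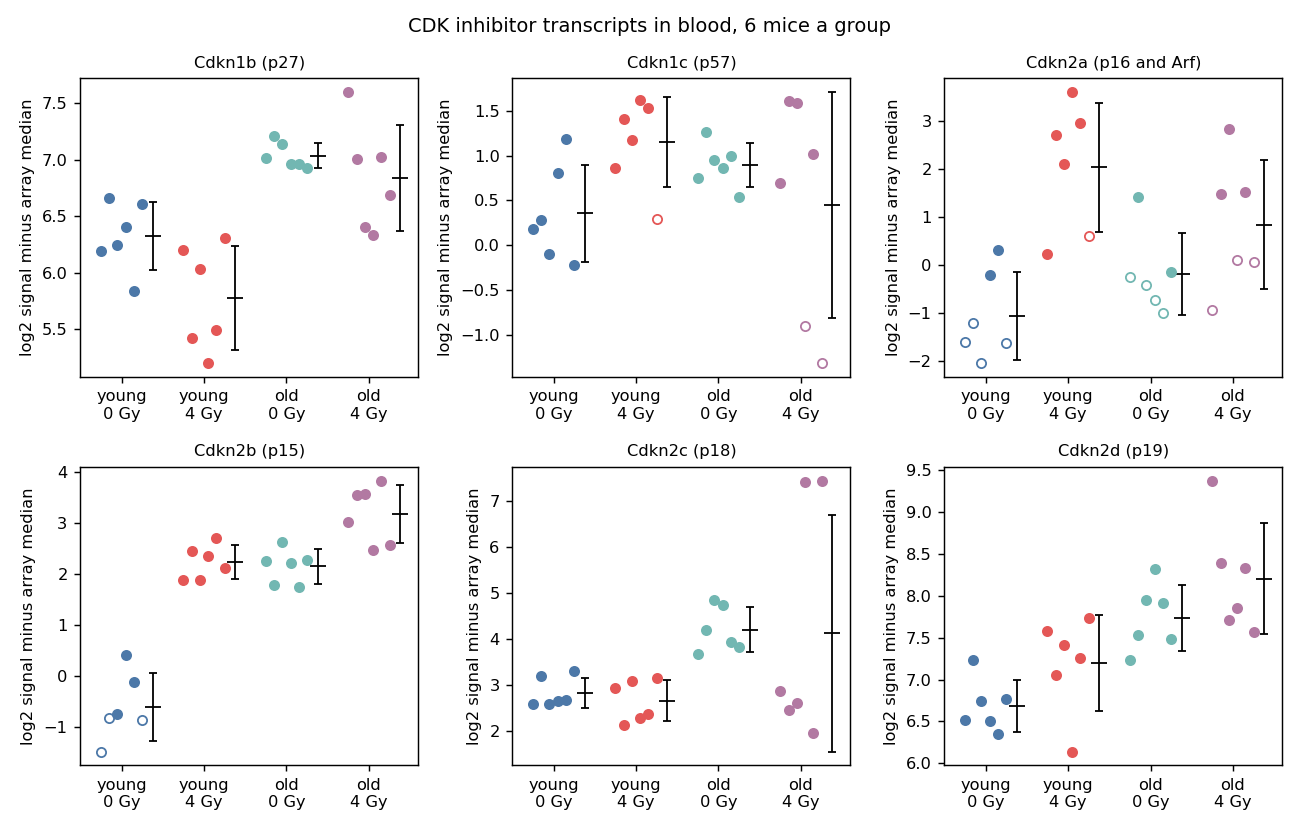
Level of each CDK inhibitor in each of 24 mice, by its brightest probe (vertical axis, log2 signal minus array median; the axes differ between panels). Each circle is 1 mouse, filled where the spot was well above background and open where it was not, and the bar beside it gives the mean and SD of 6 mice. *Cdkn2b* separates unirradiated young mice, at most 0.40, from the other 3 groups, at least 1.73, and *Cdkn2c* has a pair of irradiated old mice at 7.42 and 7.44.

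In young mice, irradiation was followed by higher *Cdkn2a* and *Cdkn2b*. These 2 of the 6 members were DEGs, both upregulated, where 35.4% of all genes tested were DEGs and 14.3% were upregulated. Upregulated genes were 40.4% of all DEGs, and 94.0% after normexp background correction. *Cdkn2b* (p15, A_55_P1988183) had a lowest, median and highest level of -1.49, -0.79 and 0.40 in unirradiated young mice, where 3 of 6 spots were well above background. In irradiated young mice these levels were 1.87, 2.24 and 2.71, with 6 of 6 spots well above background. No irradiated mouse overlapped an unirradiated one, which held upward for 9.45% of all genes tested. The mean rose from -0.61 ± 0.66 to 2.23 ± 0.33 (SD, n = 6 each), which is 7.17-fold, or 5.88-fold with each spot raised at least to the dimmest signal well above background on its array (log2 difference 2.84, SE 0.28, limma adjusted p = 1.18e-05). In the exact permutation test, two-sided, p was 0.00216, the smallest that the 924 splits of 6 against 6 mice can give; 36 such tests were run over the member probes. On the slide that held both groups the difference was 2.65 (limma adjusted p = 0.0516 on 4 arrays), and with slide as a block it was 2.65 (limma adjusted p = 0.0180). Of all genes tested, 0.652% and 10.2% were DEGs in these fits. After another background correction (normexp) the *Cdkn2b* difference was 1.001, still a DEG, as were 7.09% of all genes tested.

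*Cdkn2a* (p16 and Arf, A_55_P2008437) had lowest, median and highest levels of -2.05, -1.41 and 0.32 in unirradiated and 0.24, 2.42 and 3.62 in irradiated young mice. Spots were well above background in 2 of 6 and 5 of 6 mice, and 1 irradiated mouse lay below the highest unirradiated one. The mean rose from -1.06 ± 0.92 to 2.04 ± 1.35 (SD, n = 6 each), or 8.62-fold, and 6.06-fold with dim spots raised in the same way (log2 difference 3.11, SE 0.59, limma adjusted p = 0.000995). The exact two-sided permutation p was 0.00433. Irradiated young mice spread over more than 3 log2 units for this gene, against less than 1 for *Cdkn2b*. The call was lost with slide as a block and within the shared slide, where the difference was 2.13 (limma adjusted p = 0.206 and 0.225). Of all genes tested, 10.2% and 0.652% were DEGs in these fits, against 35.4% without them. After normexp correction this probe no longer passed the filters, and without them it differed by 1.13 (limma adjusted p = 0.0662).

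The pair of probes of each gene moved the same way in young mice. The dimmer *Cdkn2a* probe (A_55_P2008438) averaged -2.96 ± 0.57 in unirradiated and -1.49 ± 0.88 in irradiated young mice, and its spots passed the background flag in 0 of 6 and 2 of 6 mice. The dimmer *Cdkn2b* probe (A_55_P1979526) averaged -2.29 ± 1.05 and -0.90 ± 0.58, also with 0 of 6 and 2 of 6. In a fit of all 39429 probes without filters, the difference of 1.46 for this *Cdkn2a* probe passed the DEG thresholds (limma adjusted p = 0.0169). The difference of 1.39 for the *Cdkn2b* probe missed the p threshold (limma adjusted p = 0.0401), and its exact two-sided permutation p was 0.0130.

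The other members were not DEGs in irradiated young mice. *Cdkn1b*, whose product p27 holds resting lymphocytes out of the cycle, went from 6.32 ± 0.30 to 5.77 ± 0.46 (SD, n = 6 each; log2 difference -0.55, SE 0.22, limma adjusted p = 0.0588). After quantile normalization with this probe kept, *Cdkn1b* was a downregulated DEG (-0.82, limma adjusted p = 0.0112), as were 23.0% of all genes tested. Its second probe (A_52_P673863), which starts 1818 bases away, had a difference of -1.04 that missed the p threshold (limma adjusted p = 0.0374 over all probes). That probe passed the background flag in every unirradiated young mouse and in 2 of 6 irradiated ones. *Cdkn1c*, which encodes p57 and is imprinted, had a difference of 0.79 (SE 0.28, limma adjusted p = 0.0346), short of the p threshold. It became a DEG without unirradiated young replicate 5 (the highest of its group) or without irradiated young replicate 6 (the lowest), when it was at most 0.97. *Cdkn2c* differed by -0.17 (SE 0.22, limma adjusted p = 0.555) and *Cdkn2d* by 0.51 (SE 0.25, limma adjusted p = 0.118). *Cdkn2d* was a DEG without irradiated young replicate 4, its lowest value at 6.14, and then differed by 0.72.

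Markers of other cells moved with irradiation in young mice beside these genes. All 6 tested macrophage markers of 8 were upregulated DEGs, and their summed level ran from 4.79 to 8.65 in unirradiated and from 9.39 to 11.37 in irradiated young mice on the log2 scale. Of this list, *Cd163* was not well above background on any array and *Vcam1* was so in 2 irradiated young mice. Neutrophil, monocyte, NK cell and platelet sums were higher without overlap, and the B cell sum was lower without overlap, with 8 of 8 B cell markers downregulated. Upregulated DEGs were 3 of 9 neutrophil, 3 of 7 monocyte, 4 of 6 NK cell and 6 of 6 platelet markers, and 1 monocyte marker was downregulated. T cell and erythroid sums overlapped, with 6 of 8 and 5 of 10 markers downregulated and 1 erythroid marker upregulated. Hepatocyte marker sums ran from 2.89 to 11 in unirradiated and from 3.78 to 14.66 in irradiated young mice, and 0 of 5 tested of 8 were DEGs (limma). Over the deviations of 24 mice from their group means, the macrophage sum had a correlation of 0.73 with *Cdkn2a* and 0.64 with *Cdkn2b*, and the hepatocyte sum 0.75 with *Cdkn2a* and 0.65 with *Cdkn2b*; all share the array and its scaling. The part of these cells in the differences was not tested. Without the arrays whose hepatocyte sum exceeded 10, *Cdkn2a* (2.33) and *Cdkn2b* (2.67) remained DEGs in young mice, and *Cdkn2d* (0.82) became one. This left irradiated young replicates 1, 3 and 6, of which 1 and 6 are very similar arrays, and the unirradiated young mice without replicate 5.

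**Figure D2:**
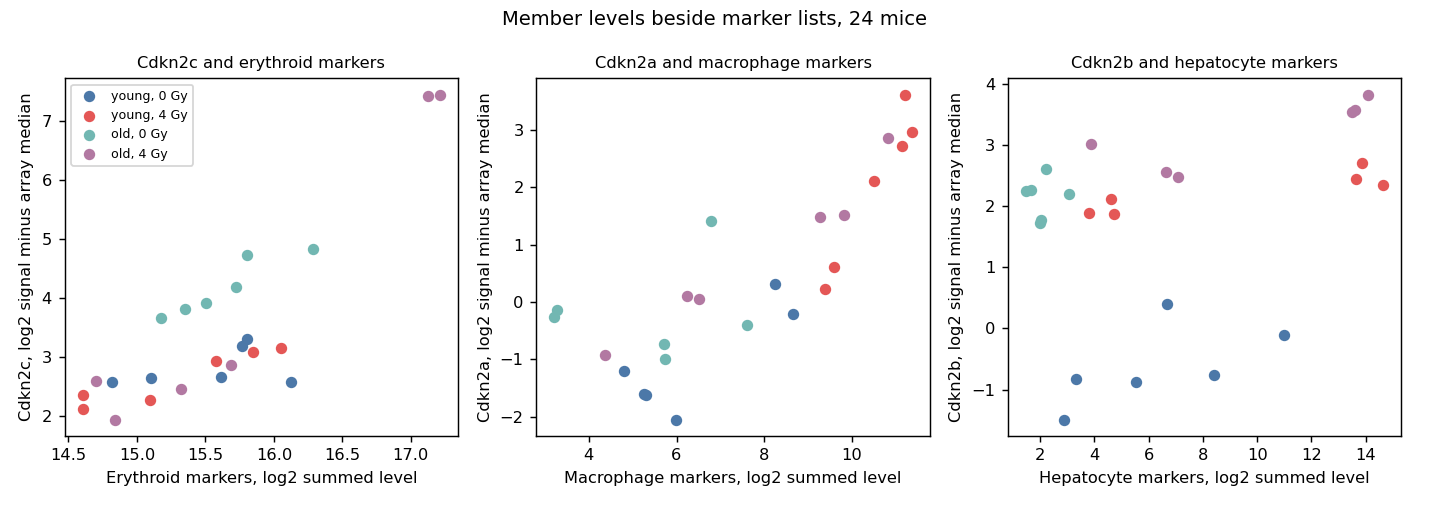
A member's level (vertical axes, log2 signal minus array median) against the log2 summed level of a marker list (horizontal axes) in 24 mice, colored by group. *Cdkn2c* is highest in the pair of irradiated old mice with the highest erythroid sums, 17.13 and 17.21, *Cdkn2a* is highest where the macrophage sum is above 10, and *Cdkn2b* is shown with the hepatocyte sum.

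In old mice, *Cdkn2b* was the only one of the 6 members that was a DEG after irradiation, and it was upregulated; 24.9% of all genes tested were DEGs and 7.49% were upregulated DEGs. Upregulated genes were 30.1% of those DEGs, and 48.0% after scaling to the 75th percentile, which moved the median gene from -0.25 to 0.24. Its levels were 1.73, 2.23 and 2.62 (lowest, median and highest) in unirradiated and 2.48, 3.29 and 3.83 in irradiated old mice, with 6 of 6 spots well above background in both groups. The groups overlapped, since irradiated replicates 4 and 6 at 2.48 and 2.56 lay below the highest unirradiated mouse. The mean rose from 2.14 ± 0.34 to 3.17 ± 0.57 (SD, n = 6 each), or 2.03-fold (log2 difference 1.02, SE 0.29, limma p = 0.00394, adjusted p = 0.0173; exact two-sided permutation p = 0.00649). This call was close to the threshold: leaving out 1 mouse at a time ended it in 9 of 12 cases, with differences between 0.89 and 1.16. It also ended with slide as a block or within the shared slide (1.28, limma adjusted p = 0.217 and 0.0593). Of all genes tested, 2.79% and 12.1% were DEGs in these fits.

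The second *Cdkn2b* probe gave the same direction in old mice with no overlap between groups, which held upward for 5.83% of all genes tested. It averaged -0.99 ± 0.48 in unirradiated and 0.43 ± 0.38 in irradiated old mice (SD, n = 6 each), with 0 of 6 and 5 of 6 spots well above background, so that it was at least 2.18-fold higher. This bound sets the mean of the irradiated mice against the dimmest spot well above background, or the probe's own signal where higher, on each unirradiated array. Its fitted difference was 1.42 (SE 0.29, limma adjusted p = 0.00553 over all 39429 probes), and the exact two-sided permutation p was 0.00216.

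*Cdkn2a* in old mice had lowest, median and highest levels of -0.997, -0.33 and 1.42 without and -0.93, 0.79 and 2.85 with irradiation. Spots were well above background in 2 of 6 and 3 of 6 mice, and the difference of 1.03 (SE 0.59, limma adjusted p = 0.192) was not called. The 3 irradiated mice above background were replicates 2, 3 and 5, at 1.48, 2.85 and 1.53. These are the irradiated old mice with hepatocyte sums between 13.50 and 14.10 and macrophage sums between 9.27 and 10.82, against at most 7.08 and 6.51 in the other 3. Without them the difference was -0.071 for *Cdkn2a* and 0.54 for *Cdkn2b* (limma adjusted p = 0.909 and 0.133). The irradiated mice left in that fit were replicates 1, 4 and 6, and 4 and 6 are a pair of very similar arrays. Over the group, hepatocyte sums ran from 1.47 to 3.08 in unirradiated and from 3.88 to 14.10 in irradiated old mice, and 5 of 5 tested of 8 markers were upregulated DEGs. In unirradiated old mice *Alb*, *Apoa1*, *Apoh*, *Ttr* and *Serpina3k* were not well above background on any array. Macrophage sums ran from 3.21 to 7.60 and from 4.38 to 10.82, with 1 of 6 tested a DEG.

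*Cdkn2c*, the inhibitor p18, split the irradiated old mice. Replicates 4 and 6 were at 7.42 and 7.44, whereas replicates 1, 2, 3 and 5 were at 2.86, 2.46, 2.60 and 1.95. All 6 unirradiated old mice lay between these sets, from 3.66 to 4.84. The mean difference was therefore small and its error large (-0.07, SE 0.94, limma adjusted p = 0.960), and without replicates 4 and 6 *Cdkn2c* was a downregulated DEG (-1.73, limma adjusted p = 0.000788). The erythroid sum was 17.13 and 17.21 in replicates 4 and 6, at most 15.69 in the other 4 mice, and between 15.18 and 16.28 in unirradiated old mice. Over the deviations of 24 mice from their group means, *Cdkn2c* and the erythroid sum had a correlation of 0.86, and of 0.75 without this pair. Without this pair *Cdkn2c* had correlations of 0.79 with the endothelial, 0.77 with the platelet, 0.72 with the monocyte and 0.71 with the neutrophil sum. Those with the NK cell and T cell sums were 0.51 and 0.08. With the B cell, macrophage and hepatocyte sums they were -0.08, -0.12 and -0.57. The part of red cell precursors or of other cells in this split was not tested.

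*Cdkn1c* had opposite extremes in the same mice. It was -0.90 and -1.32 in irradiated old replicates 4 and 6, not well above background there, and between 0.69 and 1.61 in the other 4. The difference between irradiated and unirradiated old mice was -0.45 (SE 0.49, limma adjusted p = 0.494), and it turned to 0.33 without that pair. *Cdkn1b* differed by -0.20 (SE 0.25, limma adjusted p = 0.563), which turned to 0.11 after scaling to the 75th percentile, and *Cdkn2d* by 0.46 (SE 0.33, limma adjusted p = 0.286) in old mice. *Cdkn2d* was highest in irradiated old replicate 1, at 9.37, which also had the highest neutrophil sum (14.97). Over deviations from group means the correlation of *Cdkn2d* with that sum was 0.83 in 24 mice, and with the platelet sum 0.52. Without irradiated old replicates 4 and 6 these were 0.82 and 0.86. The correlations with the hepatocyte and B cell sums were then -0.66 and -0.65.

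**Figure D3:**
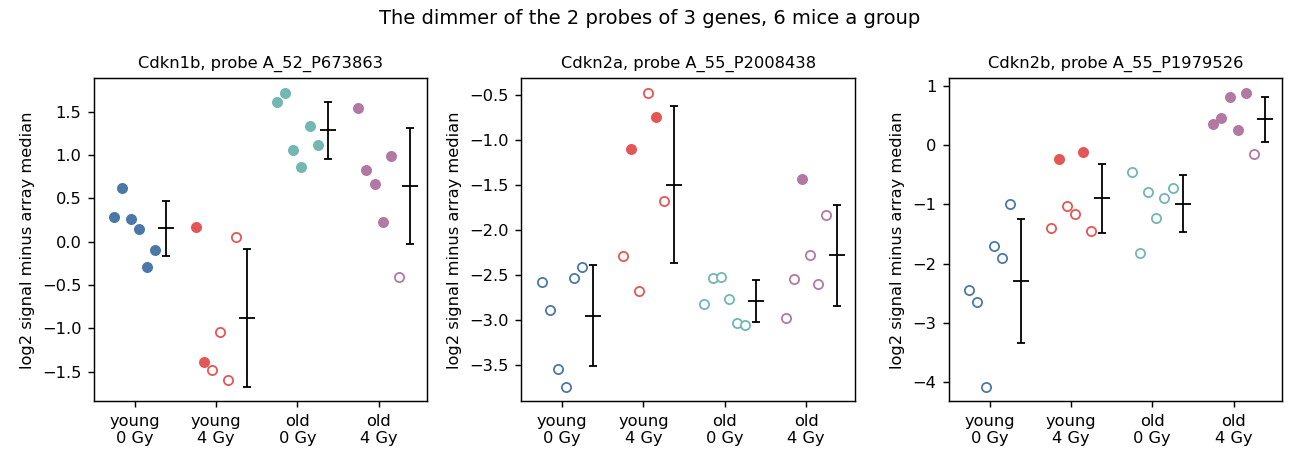
Levels of the dimmer probe of *Cdkn1b*, *Cdkn2a* and *Cdkn2b* in each of 24 mice (vertical axis, log2 signal minus array median). Circles, fills and bars have the meaning given for the plot of the brightest probes, and the *Cdkn2b* probe was well above background in 5 of 6 irradiated old mice and 0 of 6 unirradiated old mice.

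With age alone, in unirradiated mice, 4 of the 6 members were DEGs and all 4 were higher in old mice, but 63.8% of all genes tested were DEGs and 48.4% were higher DEGs. The median gene was 0.63 higher in old mice on the log2 scale with this scaling, so differences are given relative to it as well. *Cdkn2b* differed most, from -0.61 ± 0.66 in young to 2.14 ± 0.34 in old mice (SD, n = 6 each), which is 6.75-fold, or 5.53-fold with dim spots raised to the background limit (log2 difference 2.75, SE 0.28, limma adjusted p = 5.24e-06) and 2.13 above the median gene. Spots were well above background in 3 of 6 young and 6 of 6 old mice. The groups did not overlap (exact two-sided permutation p = 0.00216), with the highest unirradiated young mouse at 0.40 and the lowest old one at 1.73; 37.3% of all genes did not overlap in this direction. Its second probe differed by 1.305, missed the p threshold (limma adjusted p = 0.0199 over all probes), and was not well above background in any mouse of either group. *Cdkn2b* was a DEG in this comparison under 4 other scalings, at 2.17 to 2.59, and not after normexp background correction (0.70, limma adjusted p = 0.377). After that correction 0 of 11800 genes tested were DEGs between these groups.

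*Cdkn2c* was 1.37 higher in old mice (SE 0.23, limma adjusted p = 0.000159), *Cdkn2d* 1.05 (SE 0.20, limma adjusted p = 0.000402) and *Cdkn1b* 0.71 (SE 0.15, limma adjusted p = 0.000797). Relative to the median gene these are 0.74, 0.42 and 0.08. The groups of each of these genes did not overlap. The second *Cdkn1b* probe differed by 1.13 with no overlap (limma adjusted p = 0.000476 over all probes). Under scaling to the 75th percentile, where the median gene differed by -0.0017, *Cdkn2c* stayed a DEG at 0.85, while *Cdkn2d* (0.53) and *Cdkn1b* (0.19, limma adjusted p = 0.261) were not. For *Cdkn1b* the filters then passed the second probe in place of the first, and that probe differed by 0.61 (limma adjusted p = 0.0143, short of the p threshold). After quantile normalization the first probe differed by 0.012 and the second by 0.98, so the probes disagreed on the size of the age difference. *Cdkn1c* (0.54, limma adjusted p = 0.0455, short of the p threshold) and *Cdkn2a* (0.88, limma adjusted p = 0.0880) were not DEGs, and *Cdkn1c* turned to -0.051 when the arrays were scaled to probes well above background on all of them. For all genes the split depended on scaling too: 75.8% of DEGs were higher in old mice as scaled here, 28.9% after scaling to the 75th percentile, 44.8% after quantile normalization and 17.2% in the authors' deposited values.

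**Figure D4:**
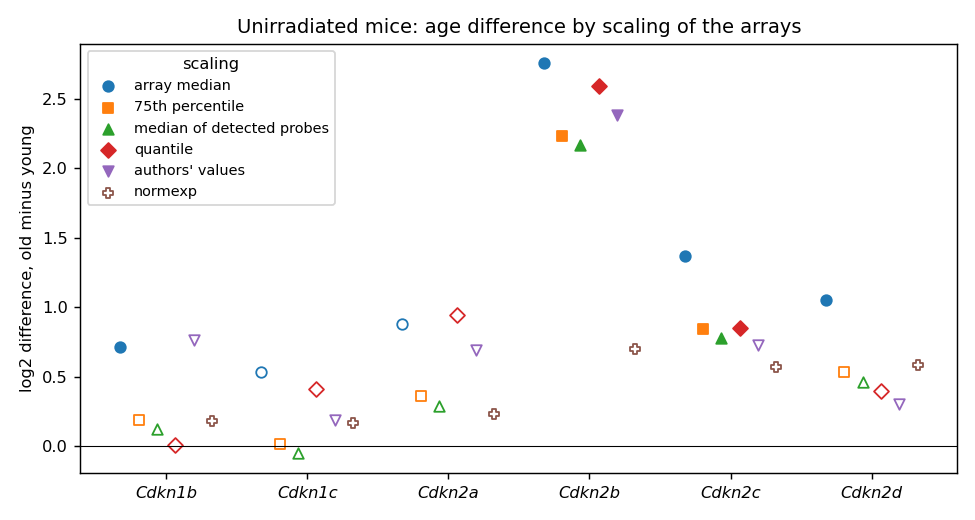
Log2 difference with age in unirradiated mice (vertical axis, old minus young, 6 mice each) for each CDK inhibitor under 6 ways of scaling or background correction. Filled symbols are DEGs and open ones are not. The same probe of each gene is plotted under each setting, except that the authors' values hold *Cdkn1b* by its second probe. *Cdkn2b* lies above 2 under all but normexp correction, *Cdkn2c* is a DEG under 4 of the 6 settings, and *Cdkn1b* and *Cdkn2d* are DEGs with the array median alone. After normexp correction 0 of all genes tested were DEGs.

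Neutrophil, monocyte and platelet marker sums were also higher in unirradiated old than in unirradiated young mice, without overlap. The neutrophil sum ran from 10.63 to 11.88 in young and from 12.49 to 14.08 in old mice, with 7 of 9 markers higher DEGs. Monocyte sums ran from 9.52 to 10.07 and from 10.14 to 11.08, with 6 of 7, and platelet sums from 11.82 to 12.61 and from 12.63 to 13.66, with 5 of 6. Within groups, over deviations of 24 mice, irradiated ones included, *Cdkn2b* had correlations of -0.15 with the neutrophil sum, -0.58 with the monocyte sum and -0.49 with the platelet sum. Without irradiated old replicates 4 and 6 these were -0.60, -0.43 and -0.34. The correlation with the neutrophil sum was 0.50 among irradiated old and -0.83 among irradiated young mice. Macrophage sums overlapped between the ages (4.79 to 8.65 in young, 3.21 to 7.60 in old), with 0 higher and 1 lower DEG of 6 tested. Hepatocyte sums ran from 2.89 to 11 in unirradiated young and from 1.47 to 3.08 in unirradiated old mice, with 3 of 5 tested markers lower DEGs in old mice (also after scaling to the 75th percentile), and their correlation with *Cdkn2b* was 0.65. Under scaling to the 75th percentile 6 neutrophil, 2 monocyte and 1 platelet markers were higher DEGs. The part of these cells in the age difference was not tested.

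In irradiated mice, 0 of the 6 members were DEGs between the ages by limma (2% of all genes tested, 1.4% higher in old mice), although 3 had an unadjusted limma p below 0.05, as did 3802 of all 17802 genes. *Cdkn1b* was 1.07 higher in old mice (SE 0.30, limma p = 0.00343, adjusted p = 0.0805), with no overlap between groups (4.44% of genes in this direction) and an exact two-sided permutation p of 0.00216. *Cdkn2b* was 0.94 higher (SE 0.30, limma adjusted p = 0.107; exact two-sided permutation p = 0.0108) and *Cdkn2d* 1.01 higher (SE 0.36, limma adjusted p = 0.136; exact two-sided permutation p = 0.0108). *Cdkn2c* (1.47, SE 0.94), *Cdkn2a* (-1.20, SE 0.70) and *Cdkn1c* (-0.70, SE 0.52) had wide errors. Fitting all 24 arrays together made *Cdkn1b*, *Cdkn2b* and *Cdkn2d* DEGs with the same differences, in a fit that called 2568 of all 17802 genes against 356 in the comparison of 12 arrays. Fits of 24 arrays, among them that of the interaction, pool the spread of all groups. The median SD per gene was 0.864 in irradiated old and 0.464 in irradiated young mice. In unirradiated old and young mice it was 0.355 and 0.305.

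**Figure D5:**
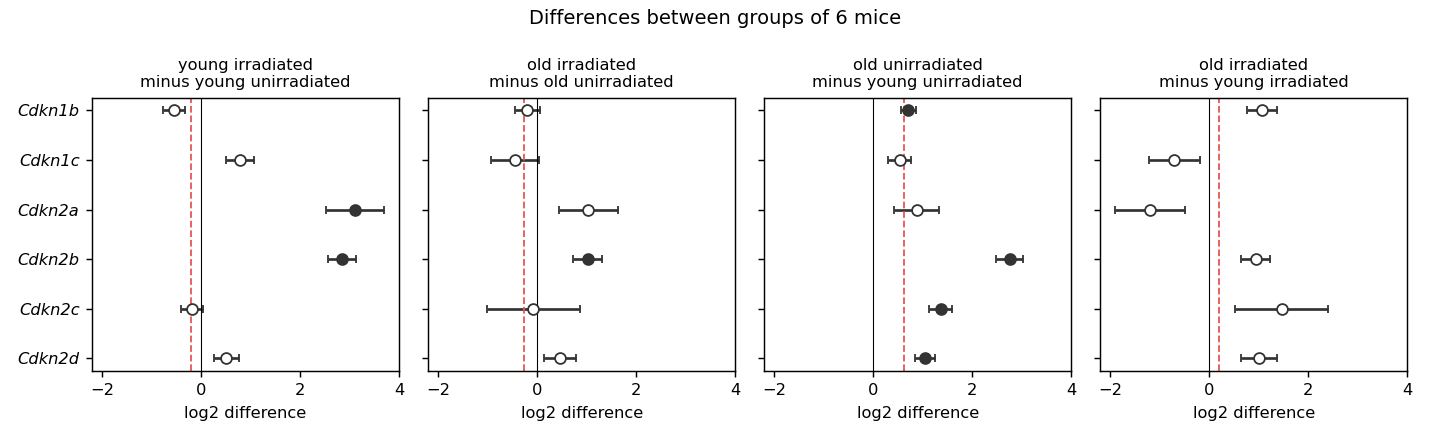
Log2 difference (horizontal axis) of each CDK inhibitor in 4 comparisons of 6 with 6 mice, with the standard error as a bar. Filled circles are DEGs, the solid line is 0 and the dashed line is the median of all 17802 genes, which is -0.20, -0.25, 0.63 and 0.20 from left to right. *Cdkn2b* is a DEG in the first 3 comparisons.

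For *Cdkn2b*, the order of the mean levels was unirradiated young (-0.61), unirradiated old (2.14), irradiated young (2.23) and irradiated old (3.17). As scaled here, unirradiated old and irradiated young mice overlapped along nearly their whole range, from 1.73 to 2.62 and from 1.87 to 2.71. The rise with irradiation was 2.84 in young and 1.02 in old mice, and the rise with age 2.75 in unirradiated and 0.94 in irradiated mice. These 4 differences share their groups. Under scaling to the 75th percentile the rise with irradiation was 2.85 in young and 1.32 in old mice, and the rise with age in unirradiated mice was 2.24. After quantile normalization these were 3.06, 1.21 and 2.59. Irradiated young mice then averaged further above unirradiated old mice than as scaled here, so the likeness of these groups depended on the scaling. The interaction of age with radiation, fitted on 24 arrays, was -1.82 for this probe (SE 0.41, limma adjusted p = 0.0968), which is not a DEG. It passed without irradiated old replicate 3 (-1.90, limma adjusted p = 0.0310), and without the arrays whose hepatocyte sum exceeded 10 (-2.12, limma adjusted p = 0.00925). In these fits 1050 and 3238 of all 17802 genes were called, against 0 with all arrays. The fit without hepatocyte-rich arrays kept irradiated young replicates 1, 3 and 6 and irradiated old replicates 1, 4 and 6. Of these, young 1 and 6 and old 4 and 6 are pairs of very similar arrays. The second *Cdkn2b* probe had an interaction of 0.03 (SE 0.54, limma adjusted p = 0.985), so the probes disagreed on it; that probe was not well above background in either unirradiated group. Over all members 0 interactions were called by limma (0% of all genes tested), while *Cdkn2a* (-2.08, SE 0.87), *Cdkn1c* (-1.24, SE 0.58) and *Cdkn2b* had an unadjusted limma p below 0.05, as did 4191 genes in all.

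The genes most like each member over 24 mice were ranked by Pearson's correlation among the 17772 other genes with a value on every array. *Cdkn2b* was most like *Os9*, *Hexa* and *Acad12* (r = 0.95, 0.95 and 0.94), and over deviations from group means these fell to 0.66, 0.66 and 0.71. *Pdia5* and *Cbr2* were among the 3 genes most like *Cdkn2a* (r = 0.92 for each), and *Lrp1* and *Fam129b* among the 3 most like *Cdkn1c* (r = 0.93 for each). *Cdkn2c* was most like *Mthfd2* and *Rplp0* (r = 0.98 and 0.97) and a transcript named only by its probe, A_55_P1962466. Irradiated old replicates 4 and 6, at 7.42 and 7.44, lay far above all other mice for *Cdkn2c*, and these correlations were not computed without them. *Cdkn2d* was most like *Gcnt1*, *Tbpl1* and *Pfkfb4* (r = 0.96 for each), and *Cdkn1b* most like *Senp2*, *Cep95* and *Frat1* (r = 0.95, 0.95 and 0.94). Among the members, *Cdkn2a* and *Cdkn2b* had r = 0.62 and, within groups, 0.55. *Cdkn1b* and *Cdkn2d* had 0.70 and 0.79, and *Cdkn1c* and *Cdkn2c* had -0.69 and -0.83, the latter -0.34 without irradiated old replicates 4 and 6. These are descriptions of arrays that share their scaling.

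The partners of the inhibitors were followed by lists. Of the G1 cyclins and kinases, 10 of 12 were tested. In irradiated young mice 2 were upregulated and 4 downregulated DEGs (median log2 difference -0.52, against -0.20 for all genes), and the same counts held in old mice (median -0.41, against -0.25, and 0.22 after scaling to the 75th percentile). The shares over all genes tested were 14.3% upregulated and 21.1% downregulated in young mice, and 7.49% and 17.4% in old mice. *Ccnd1* (cyclin D1, a partner of CDK4) rose by 3.17 (SE 0.46) in young and by 1.59 (SE 0.36) in old mice. *Ccnd3* (cyclin D3) rose by 1.28 and 1.005, and it was the 1 gene of this list that was higher in unirradiated old than young mice (1.07); after scaling to the 75th percentile this list had 0 higher and 1 lower DEG of 9 tested between these groups (limma). *Cdk4*, the kinase that INK4 proteins bind, had differences of -0.24 and -0.08 and was not called. *Cdk2* fell by 1.05 in young and 1.74 in old mice, and *Cdc25a*, a phosphatase that activates CDK2, by 0.81 and 1.39.

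Of the pocket proteins and E2F factors that these kinases control, 11 of 13 were tested, and 0 were upregulated and 3 downregulated in each age (median -0.51 in young and -0.82 in old mice, against -0.20 and -0.25 for all genes, of which 21.1% and 17.4% were downregulated DEGs). After scaling to the 75th percentile 2 of 9 were downregulated in each age, and the median in old mice was -0.52. *E2f2* (-1.53) and *Tfdp2* (-1.77) fell in young mice, and *Rbl1* (-1.25), *E2f6* (-1.05) and *E2f8* (-1.20) in old mice. Of 12 genes that transcribe or degrade p27, 11 were tested, of which 0 rose and 4 fell in young and 2 fell in old mice. Their median was -0.42 in young and -0.63 in old mice, and the shares of downregulated DEGs over all genes were again 21.1% and 17.4%. *Foxo1*, a transcription factor that acts on *Cdkn1b*, fell by 1.80 in young and 2.25 in old mice, and *Rbx1*, a subunit of the ligase that marks p27 for removal, by 1.04 in old mice, where it turned upward after normexp correction.

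Of 18 regulators of the INK4 and Arf genes, 17 were tested, with 3 upregulated and 5 downregulated in young mice (median -0.32), 1 and 5 in old mice (median -0.94), and 9 higher in unirradiated old than young mice (median 0.63, as for all genes). Over all genes tested, 14.3% were upregulated and 21.1% downregulated DEGs in young mice, and 7.49% and 17.4% in old mice. Between unirradiated ages 48.4% were higher DEGs in old mice. After scaling to the 75th percentile, 16 genes of the regulator list were tested between unirradiated ages, with 3 higher and 2 lower DEGs in old mice. Polycomb genes, known to silence *Cdkn2a* and *Cdkn2b*, were among those that fell: *Ezh2* by 0.86 in young and 1.32 in old mice, and *Suz12* by 0.80 and 1.04. *Ets1*, an activator of *Cdkn2a* that is abundant in lymphocytes, fell by 1.95 and 2.11, and *Id2*, which opposes such activators, rose by 1.60 in young mice. Of the 6 genes around Arf, Mdm2 and p53, 1 rose and 3 fell in each age. The riser was *Mdm2* (0.89 in young and 1.33 in old mice), while *Trp53* (-1.19 and -1.82), *Npm1* (-0.77 and -1.86) and *Usp7* (-0.61 and -1.15) fell; *Npm1* in young mice turned upward after normexp correction. Of 14 S and G2/M genes, 12 were tested, with 0 upregulated and 3 downregulated in each age, among them *Mcm2* (-1.07 and -1.22) and *Mcm5* (-1.09 and -1.99), subunits of the replication helicase. Of all genes tested, 21.1% were downregulated DEGs in young and 17.4% in old mice, and after scaling to the 75th percentile 2 and 1 of 11 genes of this list were. B cell markers fell beside these lists, with 8 of 8 downregulated in young and 7 of 8 in old mice. Of 8 T cell markers, 6 were downregulated in young and 0 in old mice. The part of these cells in the lists was not tested.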

How the data were processed

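The authors deposited intensity values, 1 file per array, which Agilent Feature Extraction 12.0.2 (per the submitters' processing notes) had corrected for background but not scaled between arrays, with a flag for each spot in the unit of the scanner. The deposited log2 table of the authors was filtered and normalized before deposit, is on a log2 scale with its centring unstated, and was used as an alternative. As in the methods, log2 was taken and each array's median subtracted; non-uniform spots were set to missing. Probes that were uneven or near background in 25% of arrays, or without a 1.5-fold change in 20% of arrays, were dropped, and the probe with the highest mean stood for a gene. Groups of 6 arrays were compared with limma 3.58.1 in R 4.3.3 (12 arrays, 24 for the interaction), two-sided, and single probes by exact permutation in SciPy 1.17.1, without adjustment. The fits of irradiated against unirradiated young mice and of the interaction were tested on simulated data. These had independent arrays with the spread of unirradiated young mice. The wider spread of other groups, very similar arrays and slides were not simulated. Alternatives were other scalings, filters, blocks, 1 fit of all arrays and leaving out arrays. Leaving out doubted arrays, keeping the reported probes and averaging very similar arrays were chosen after seeing the data. The members and lists were chosen with earlier results of these data known. Named list genes were those with the highest signal or smallest p. Some of the genes most like a member are not reported here. Nothing states separate litters, so p-values measure the spread between these mice.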

Additional observations from a re-analysis of the deposited data

Results flagged for a closer look

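Of 36 groups of 6 values (9 member probes in 4 groups), 1 had a sample far from the others. *Cdkn2a* (A_55_P2008437) in unirradiated old replicate 2 was at 1.42, with the next mouse at -0.15, a gap of 0.648 of the group's range, past Dixon's 95% critical value. Chance flags about 1 in 20 such groups.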

How the results depend on the processing

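Replicate numbers in the labels only name a mouse, so the main fits had no block by replicate. Deviations of same-numbered mice correlated between -0.29 and 0.34 in the radiation comparisons, and between -0.60 and 0.58 between irradiated ages. With the replicate block, the members called were 0 instead of 1 in old mice (*Cdkn2b*, adjusted p = 0.0474, p above 0.005), and *Cdkn1c* joined *Cdkn2a* and *Cdkn2b* in young mice. Filters were repeated under each scaling, and the second *Cdkn1b* probe then stood for the gene under the 75th percentile, quantile, detected-probe and authors' settings; keeping the reported probes was chosen after seeing the data. Between unirradiated ages, 2 members were called under 75th percentile scaling, under the median of detected probes and, with the reported probes, after quantile normalization, 1 in the authors' deposited values and 0 after normexp, instead of 4. In young mice 1 instead of 2 was called after normexp, with slide as a block and among genes well above background in all 6 mice of a group, and 0 within the shared slide. With the reported probes after quantile normalization 3 were called in young mice, with *Cdkn1b* downregulated. In old mice 0 were called after normexp, without the background filter, with slide as a block, within the shared slide and without the arrays rich in hepatocyte markers, and 2 without replicates 4 and 6 (6129 of all genes, against 4428). Some of these fits called few genes of any kind. In young mice 7.09% of all genes were called after normexp, 10.2% with slide as a block and 0.652% within the shared slide. In old mice these shares were 0.0678%, 2.79% and 12.1%, and between unirradiated ages 0% after normexp. Between irradiated ages 3 were called in 1 fit of all arrays (2568 of all genes, against 356), and 2 with slide as a block and without replicates 4 and 6 (5051 of all genes). For the interaction 3 (*Cdkn1c*, *Cdkn2a* and *Cdkn2b*) were called without the arrays rich in hepatocyte markers, as were 3238 of all 17802 genes (0 with all arrays).

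Directions turned for members that were not DEGs. In old mice *Cdkn2c* was 0.23 (75th percentile), 0.018 (quantile), 0.27 (detected probes), 0.39 (normexp), 0.10 (authors' values) and 1.71 (without hepatocyte-rich arrays); *Cdkn1b* was 0.40 (normexp), 0.36 (slide as a block, within the slide), and 0.11 (75th percentile) and 0.15 (detected probes) where its reported probe was kept; *Cdkn1c* was 0.38 (slide as a block, within the slide), 0.33 (without replicates 4 and 6) and 0.11 (normexp, reported probe kept); and *Cdkn2a* was -0.071 (without hepatocyte-rich arrays). In young mice *Cdkn2c* was 0.00098 (normexp) and 0.19 (without hepatocyte-rich arrays). Between unirradiated ages *Cdkn1c* was -0.051 (detected probes). Between irradiated ages without replicates 4 and 6, *Cdkn1c* was 0.076 and *Cdkn2c* -0.19. The interaction of *Cdkn2c* was -0.77 (slide as a block), -1.55 (without replicates 4 and 6) and -0.66 (similar arrays averaged), and that of *Cdkn2d* was 0.25, 0.070, 0.27, 0.020 and 0.19 in the order of scalings given for *Cdkn2c*, 0.43 (slide as a block), 0.20 (without replicates 4 and 6) and 0.084 (similar arrays averaged). The irradiated old mice left without the hepatocyte-rich arrays were replicates 1, 4 and 6. The causes were not tested.

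Leaving out 1 mouse gave 2 to 3 members called in young, 0 to 1 in old, 4 to 5 between unirradiated ages, 0 between irradiated ages and 0 to 1 for the interaction (1 without irradiated old replicate 3, where 1050 of all genes were called). *Cdkn2c* then ran from -0.74 to 0.36 in old mice and its interaction from -0.56 to 0.54, and that of *Cdkn2d* from -0.28 to 0.083. *Cdkn2b* kept its direction in every setting run for the 2 radiation comparisons and for unirradiated ages. *Cdkn1c* and *Cdkn2a* could not be fitted after normexp, nor *Cdkn2a* with the stricter background filter, because the filters removed them; with its reported probe kept, *Cdkn2a* was 1.13 in young mice after normexp (adjusted p = 0.0662) and not a DEG. Signal over background limits the dim probes of *Cdkn2a* and *Cdkn2b*.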
